A study of Rattus norvegicus with 9 samples.

Results

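The constitutive proteasome subunit genes were the gene lines whose symbol begins with Psma, Psmb, Psmc or Psmd and a digit, without the immunoproteasome genes Psmb8, Psmb9 and Psmb10 and without pseudogenes. This rule uses names and no measured value, and it found 37 of the 22077 intact gene lines. They were 8 genes of the alpha ring (Psma1 to Psma8), 8 of the beta ring (Psmb1 to Psmb7 and Psmb11), 6 ATPases (Psmc1 to Psmc6), 11 other subunits of the regulatory particle and 3 chaperones that assemble it (Psmd5, Psmd9 and Psmd10). The rule also took Psmc3ip, a meiotic recombination factor that is no proteasome subunit. It was kept as a class of its own, but the counts and medians over all tested genes of the rule include it.

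RNA was sequenced from peripheral blood mononuclear cells of wild-type Sprague-Dawley rats, with 3 libraries in each of 3 groups: normoxia at day 0, Sugen-hypoxia (SuHx) at day 28 and SuHx at day 56. SuHx is a rat model of pulmonary arterial hypertension that combines Sugen, an inhibitor of VEGF receptors, with low oxygen. All controls were taken at day 0, so that treatment, day and age of the rats cannot be told apart. The labels do not say that replicates came from separate animals; p-values here reflect the spread among libraries, and part or all of it may be technical.

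The proteasome is the large protease that degrades proteins tagged with ubiquitin. Its core particle stacks rings of alpha subunits, which form the gate, around rings of beta subunits, among which Psmb5, Psmb6 and Psmb7 carry the active sites. The regulatory particle caps the core: its Psmc ATPases unfold the substrate, and its Psmd subunits bind ubiquitin, remove it or hold the cap together. In blood leukocytes part of the core carries Psmb8, Psmb9 and Psmb10 in place of the constitutive catalytic subunits, and its peptides feed antigen presentation on MHC class I.

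Exon reads per library ranged from 22148400 to 39947430, of which between 0.151% and 0.297% fell on the 37 genes. Globin genes took 43.1%, 49.4% and 56.4% of the exon reads in normoxia, 1.43%, 4.84% and 29.0% at day 28, and 40.6%, 43.4% and 44.6% at day 56. The leukocyte gene Ptprc was at 1425.9 CPM or above in every library (CPM, exon reads scaled to a common library size with TMM factors), the T cell gene Cd3e at 138.5 CPM or above and the B cell gene Cd79b at 123 CPM or above. The neutrophil granule genes Mpo and Elane were at 0.260 CPM or below in every library. The whole neutrophil marker list (9 of 13 genes tested) averaged 2.20, 1.41 and 2.09 log2 CPM in normoxia. It averaged 2.06, 3.82 and 2.18 at day 28, and 2.88, 2.87 and 2.03 at day 56. The share of neutrophils in the samples was not tested. Normoxia replicates 2 and 3 stood apart from normoxia replicate 1 in the genes described here, so the calls are given with and without replicate 1. Fewer cells of a type and less RNA per cell cannot be told apart in such bulk samples.

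The 35 tested genes were read in all 9 libraries, at levels that differed by gene. By RPKM, which scales exon reads by exon length and by all mapped reads, Psma7 of the alpha ring had a mean over all libraries of 100.9, Psmb4 100.4 and Psmb1 95.3, the 3 highest means, and their order differed between groups. Among tested genes Psmc3ip was the lowest with 2.91 RPKM, and the lowest subunit or chaperone gene was Psmd10, the chaperone gankyrin, with 3.40 RPKM. Group levels in RPKM were not compared, because globin reads enter their total.

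Psma8, the alpha subunit of the germ cell proteasome, had 0 exon reads in normoxia, 0, 1 and 1 reads at day 28 and 0 at day 56. Psmb11, the catalytic subunit of thymic cortical epithelium, had 0 reads in normoxia and at day 56 and 1 read in 1 day 28 library. Neither gene passed the filter on low counts, and the other 35 genes were tested. A count of 0 in a library allows up to 0.195 CPM (3 counts in the library with the lowest scaled size), and it covers counting error only.

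At day 56 the genes Psma3, Psmd5 and Psmd6 were called lower than in normoxia, and no subunit gene was called higher. These 3 of 35 were called by edgeR's quasi-likelihood test with Benjamini-Hochberg adjustment over all 12447 tested genes, of which 3.70% were called lower and 3.42% higher. At day 28 none of the 35 was called, against 0.0402% of all genes called lower and 0.0884% called higher. At day 28 an unadjusted p under 0.05 was reached by 18 genes that were lower, against 16.6% of all genes, and by 0 that were higher, against 12.1%. DESeq2 called 5 lower (7.38% of all genes) and 0 higher (6.24%) at day 28, and 11 lower (10.6%) and 0 higher (8.95%) at day 56. At day 56 the unadjusted p was under 0.05 for 22 lower genes (17.6% of all) and 1 higher gene, Psmd3 (13.3%). Both comparisons share the 3 normoxia libraries.

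Psma3 codes an alpha ring subunit (ENSRNOG00000007851, chromosome 6, 93423001 to 93444240, rn6). It had 62.6, 134.8 and 137.2 CPM in normoxia, 67.3, 76.3 and 72.9 CPM at day 28, and 55.8, 45.3 and 44.9 CPM at day 56. All 3 day 56 libraries lay below all of normoxia and below all of day 28, while normoxia replicate 1 lay below every day 28 library. The log2 fold change of Psma3 was -1.20 at day 56 (SE 0.27, adjusted p = 0.0363, edgeR) and -0.63 at day 28 (SE 0.27, adjusted p = 0.165).

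Psmd5 codes a chaperone that holds part of the ATPase ring during assembly and leaves before the regulatory particle is complete (ENSRNOG00000018809, chromosome 3, 13916202 to 13933658, rn6). It had 20.7, 44.7 and 40.4 CPM in normoxia, 20.1, 18.8 and 20.5 CPM at day 28, and 15.9, 17.7 and 18.9 CPM at day 56. All 6 SuHx libraries lay below normoxia, replicate 1 of which was within 1 CPM of the highest day 28 library. The log2 fold change was -1.01 at day 56 (SE 0.26, adjusted p = 0.0470, edgeR) and -0.83 at day 28 (SE 0.26, adjusted p = 0.103).

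Psmd6 codes a subunit of the lid (ENSRNOG00000006751, chromosome 15, 12407523 to 12416105, rn6). It had 29.4, 71.5 and 75.5 CPM in normoxia, 29.5, 31.4 and 29.5 CPM at day 28, and 27.2, 25.7 and 26.7 CPM at day 56. Normoxia replicate 1 lay just under the day 28 libraries, and day 56 lay below all the other libraries. The log2 fold change was -1.15 at day 56 (SE 0.30, adjusted p = 0.0486, edgeR) and -0.96 at day 28 (SE 0.30, adjusted p = 0.103). Introns took 41.5% of the reads of Psmd6, and with exon plus intron reads its log2 fold change at day 56 was -0.59 and did not pass.

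The 3 calls held without normoxia replicate 1, where the log2 fold changes were -1.47, -1.27 and -1.45 for Psma3, Psmd5 and Psmd6. They were lost when any 1 of the other 8 libraries was left out. The edgeR adjusted p then ran from 0.0521 to 0.143 for Psma3, from 0.0658 to 0.170 for Psmd5 and from 0.0681 to 0.170 for Psmd6. Without replicate 1, 28 of the 35 genes were called lower at day 56, against 21.2% of all tested genes. For the other 8 fits the calls over all genes are not given here.

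**Figure D1:**
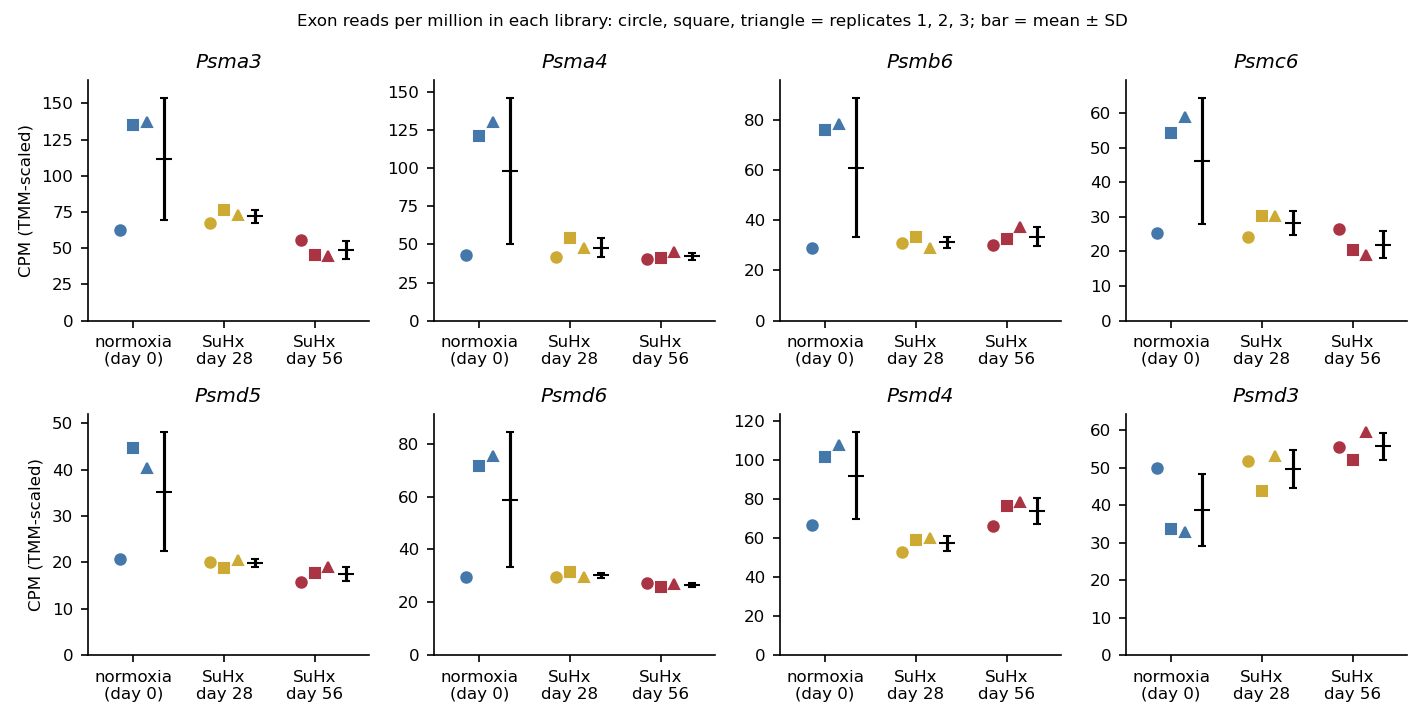
CPM of 8 genes in each of the 9 libraries on linear axes from 0, with circle, square and triangle for replicates 1, 2 and 3 and a bar for the group mean ± SD (n = 3). In every panel but that of Psmd3, normoxia replicates 2 and 3 lie above all the SuHx libraries and replicate 1 does not share their level; in Psmd3 they lie below, at 33.5 and 32.8 CPM.

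The sequences upstream of Psma3 and Psmd5, of the 3 genes called lower at day 56, are printed with those of Psma4 and Psmd3. These had the lowest and the highest log2 fold change of the 35 at day 56. The RefSeq promoter table (GRCr8) matched 32 of the 37 genes; Psma7, Psmb11, Psmd6, Psmd12 and Psmd14 were not in it. The bases are the 250 before the annotated start, on the gene's strand, and capitals mark the motifs described after them.
Psma3, chr6:95219499-95219748, plus strand: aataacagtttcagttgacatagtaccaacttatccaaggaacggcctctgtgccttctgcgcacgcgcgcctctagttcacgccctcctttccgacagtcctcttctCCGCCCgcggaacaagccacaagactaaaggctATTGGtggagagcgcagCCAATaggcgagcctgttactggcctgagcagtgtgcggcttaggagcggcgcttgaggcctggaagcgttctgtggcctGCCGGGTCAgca
Psma4, chr8:64236270-64236519, plus strand: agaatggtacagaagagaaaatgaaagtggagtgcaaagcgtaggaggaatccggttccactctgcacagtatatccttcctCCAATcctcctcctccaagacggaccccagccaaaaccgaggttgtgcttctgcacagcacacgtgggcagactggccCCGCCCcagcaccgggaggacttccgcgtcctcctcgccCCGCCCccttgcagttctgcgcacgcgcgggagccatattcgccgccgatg
Psmd5, chr3:38548491-38548740, minus strand: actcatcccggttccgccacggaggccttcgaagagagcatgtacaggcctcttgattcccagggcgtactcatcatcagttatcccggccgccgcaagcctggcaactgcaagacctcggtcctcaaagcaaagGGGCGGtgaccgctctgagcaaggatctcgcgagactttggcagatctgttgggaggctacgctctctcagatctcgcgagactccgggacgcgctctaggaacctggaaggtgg
Psmd3, chr10:84139688-84139937, plus strand: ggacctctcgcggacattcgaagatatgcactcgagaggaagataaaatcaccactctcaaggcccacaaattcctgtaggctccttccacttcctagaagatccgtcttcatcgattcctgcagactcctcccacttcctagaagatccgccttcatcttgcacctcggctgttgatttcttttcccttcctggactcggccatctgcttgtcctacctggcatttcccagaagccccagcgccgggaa

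Motifs were searched by their letters on both strands of these 250 bases. The antioxidant response element, written TGACNNNGC, is the kind of site that Nfe2l1 and Nfe2l2 bind; it was found in 6 of 32 windows (18.8%), against 10.1% of the 33469 windows in the table. The 6 genes were Psma3, Psmb2, Psmb5, Psmb6, Psmd1 and Psmd9. The CCAAT box was found in 17 windows (53.1%, against 34.02% of all), the GC box GGGCGG in 23 (71.9%, against 30.5%), the ETS-type site CCGGAAG in 11 (34.4%, against 7.27%) and TATAAA in 4 (12.5%, against 12.9%). Matches of different motifs overlapped in 2 places in the 32 windows. Psma3 held an antioxidant response element, CCAAT in both orientations and a GC box; Psma4 held CCAAT and GC boxes, Psmd5 a single GC box and Psmd3 none of the motifs. A match is a description of the letters and was not compared with binding.

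Most of the genes that were not called also had log2 fold changes below 0. At day 28, 34 of 35 log2 fold changes were below 0, against 50.4% of all tested genes, and their median was -0.59, against -0.01 for all genes. At day 56, 32 of 35 were below 0, against 53.0% of all genes, with a median of -0.59, against -0.04. Under the other scalings tried (RLE and upper-quartile factors, TMM without globin, erythroid and ribosomal protein genes, and DESeq2) the median lay between -0.62 and -0.58 at day 28 and between -0.59 and -0.58 at day 56. With the intron share of each library as a covariate the day 28 median turned to 0.07, with 20 of 35 genes above 0, and the day 56 median was -0.36. The CPM of the groups did not overlap, with SuHx lower, for 4 of 35 genes at day 28 and 6 of 35 at day 56, against 11.8% and 14.9% of all genes. SuHx lay above without overlap for 0 genes at day 28, against 11.4% of all genes.

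**Figure D2:**
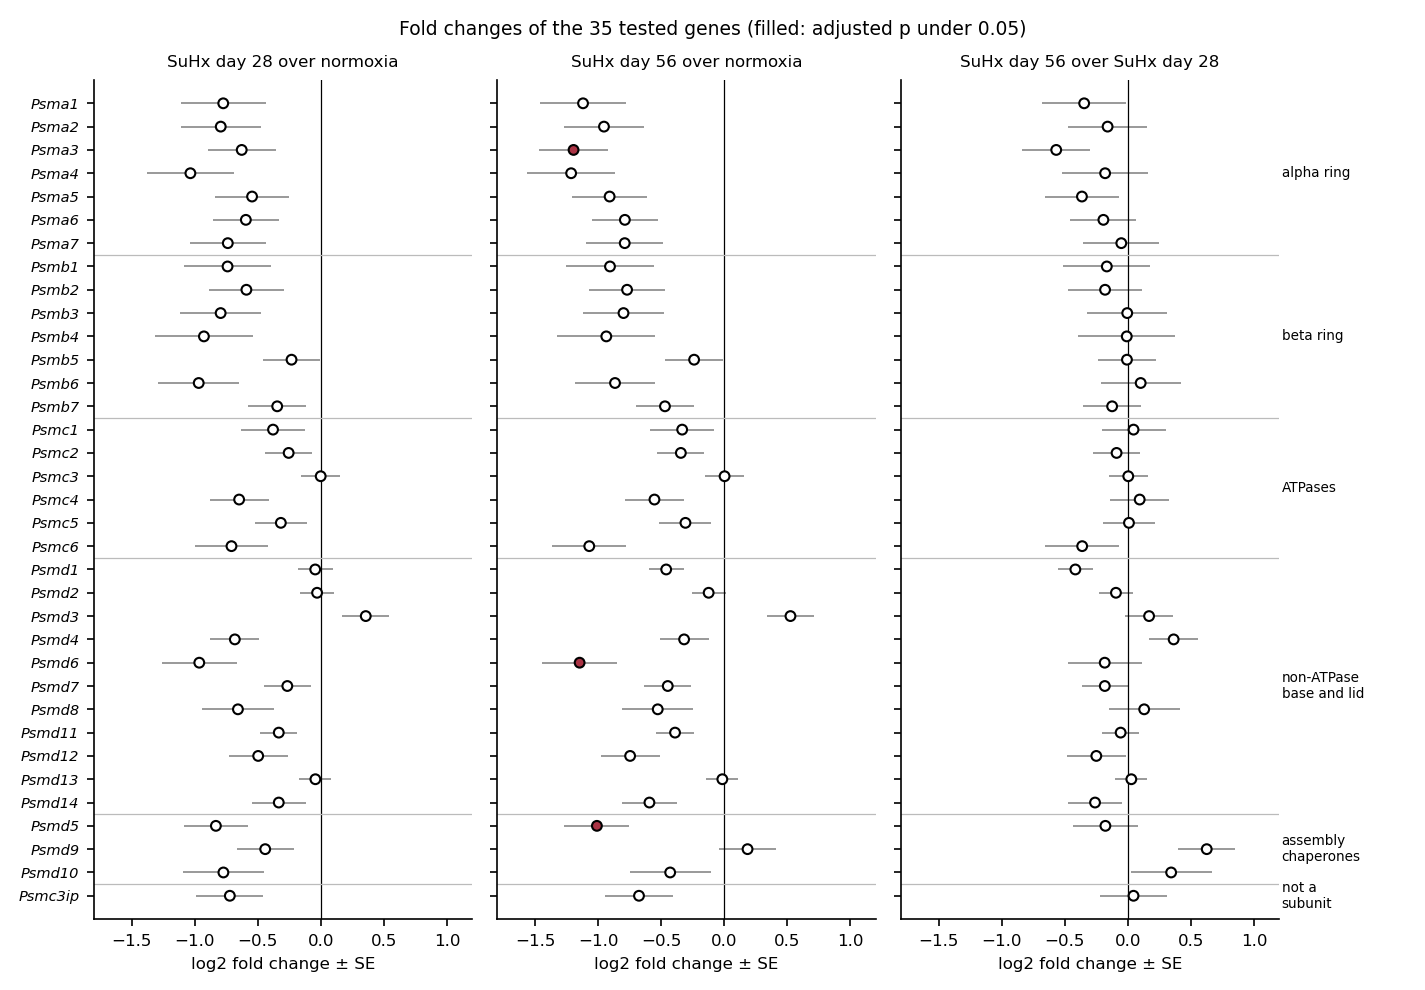
Log2 fold change ± SE of the 35 tested genes by class, for day 28 over normoxia, day 56 over normoxia and day 56 over day 28; filled points have an edgeR adjusted p under 0.05. Only Psma3, Psmd5 and Psmd6 at day 56 over normoxia are filled, and the alpha and beta ring genes lie left of 0 in both comparisons with normoxia.

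The 7 tested genes of the alpha ring had log2 fold changes between -1.03 and -0.55 at day 28 and between -1.22 and -0.79 at day 56. Psma4, which had the smallest p of the ring at day 28, had 42.8, 121.5 and 130.4 CPM in normoxia, 42.0, 54.4 and 47.4 CPM at day 28, and 40.5, 41.4 and 44.9 CPM at day 56. Its normoxia replicate 1 lay among the SuHx libraries. The log2 fold change of Psma4 was -1.03 at day 28 (SE 0.35, adjusted p = 0.113) and -1.22 at day 56 (SE 0.35, adjusted p = 0.0615), and neither passed.

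Of the beta ring, 7 genes were tested, with log2 fold changes between -0.97 and -0.23 at day 28 and between -0.94 and -0.24 at day 56. Psmb4, a structural beta subunit without an active site, had 64.2, 214.0 and 218.3 CPM in normoxia, 81.4, 101.6 and 78.0 CPM at day 28, and 74.7, 85.2 and 99.5 CPM at day 56. Its gap within normoxia, a log2 difference of 1.74 between the mean of replicates 2 and 3 and replicate 1, was the highest of the 35 genes.

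Of the catalytic subunits, none was called. Psmb5, which carries the chymotrypsin-like site, had 33.0, 55.6 and 57.0 CPM in normoxia, 39.4, 45.2 and 39.3 CPM at day 28, and 32.5, 44.4 and 46.4 CPM at day 56. Psmb7, which carries the trypsin-like site, had 36.3, 65.7 and 67.7 CPM in normoxia, 42.5, 48.8 and 42.1 CPM at day 28, and 36.1, 42.6 and 43.7 CPM at day 56. For both genes normoxia replicate 1 lay just above the lowest SuHx library and below the other 5. The log2 fold changes were -0.23 and -0.24 for Psmb5 (SE 0.23 at both days, adjusted p = 0.496 and 0.499) and -0.35 and -0.47 for Psmb7 (SE 0.23 at both days, adjusted p = 0.321 and 0.193) at day 28 and day 56.

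Psmb6, which carries the caspase-like site, had 28.9, 76.0 and 78.3 CPM in normoxia, 31.0, 33.5 and 29.1 CPM at day 28, and 30.1, 32.7 and 37.5 CPM at day 56. All 6 SuHx libraries lay just above normoxia replicate 1 and far below the others. Its log2 fold change was -0.97 at day 28 (SE 0.32, adjusted p = 0.112) and -0.87 at day 56 (SE 0.32, adjusted p = 0.107). Only 16.4% of its exon reads mapped uniquely, the lowest share of the 37 genes, against 98.7% or more in the others. The RefSeq table also holds a gene named Psmb6l1. The windows of 300 bases around both starts share a run of 29 bases. It is printed here as the longest stretch in common within these windows, with the start codon of Psmb6 in capitals. The run stops where the window of Psmb6 ends, so the match may be longer.
Psmb6, chr10:55737909-55737937, plus strand, and Psmb6l1, chr2:95741923-95741951, minus strand, GRCr8: ggaagATGgcggccgccttagctgttcgt
Where the other reads of Psmb6 also map is not given in the table, and the level of Psmb6 is uncertain.

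The 6 ATPases had log2 fold changes between -0.71 and -0.00 at day 28 and between -1.07 and 0.00 at day 56. Psmc3 varied little, with 65.8, 77.3 and 79.8 CPM in normoxia, 74.0, 77.7 and 71.1 CPM at day 28, and 63.9, 78.2 and 81.0 CPM at day 56; its log2 fold changes were -0.00 (SE 0.15, adjusted p = 0.996) and 0.00 (SE 0.15, adjusted p = 0.995). Psmc6 had 25.3, 54.4 and 59.0 CPM in normoxia, 24.3, 30.2 and 30.4 CPM at day 28, and 26.5, 20.5 and 19.0 CPM at day 56. Its log2 fold change at day 56 was -1.07 (SE 0.29, adjusted p = 0.0558). Psmc4 had 55.8, 107.8 and 105.4 CPM in normoxia, 55.6, 59.3 and 56.7 CPM at day 28, and 55.7, 62.3 and 65.0 CPM at day 56. The 3 lowest values of Psmc4 thus include 1 library of each group, and its log2 fold change at day 28 was -0.65 (SE 0.23, adjusted p = 0.126).

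The 11 non-ATPase subunits spanned the widest range, from -0.96 to 0.36 at day 28 and from -1.15 to 0.52 at day 56. Psmd2, a scaffold of the base that also binds ubiquitin-like domains, had 110.7, 104.9 and 103.5 CPM in normoxia, 103.0, 110.6 and 98.9 CPM at day 28, and 95.2, 98.1 and 99.4 CPM at day 56. Psmd13, a lid subunit, averaged 58.0 ± 2.65 CPM at day 28 and 59.1 ± 2.13 CPM at day 56, against 59.7 ± 1.21 CPM in normoxia (SD, n = 3 each). Its log2 fold change was -0.04 at day 28 and -0.02 at day 56 (SE 0.13 at both days, adjusted p = 0.832 and 0.942).

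Psmd4, a ubiquitin receptor, had the smallest p of these subunits at day 28. It had 66.5, 101.4 and 107.7 CPM in normoxia, 52.8, 59.1 and 59.8 CPM at day 28, and 66.1, 76.4 and 78.4 CPM at day 56. All day 28 libraries lay below all the others. The log2 fold change of Psmd4 was -0.68 at day 28 (SE 0.19, adjusted p = 0.0937) and -0.32 at day 56 (SE 0.19, adjusted p = 0.283), and neither passed.

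Psmd3, a subunit of the lid, lay the other way. It had 49.9, 33.5 and 32.8 CPM in normoxia, 51.8, 43.9 and 53.3 CPM at day 28, and 55.6, 52.2 and 59.5 CPM at day 56. All day 56 libraries lay above all of normoxia, the only such case among the 35 genes, against 15.6% of all tested genes. The log2 fold change was 0.36 at day 28 (SE 0.19, adjusted p = 0.228) and 0.52 at day 56 (SE 0.19, adjusted p = 0.103), and neither passed.

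Of the assembly chaperones, Psmd9 differed from Psmd5. It had 16.8, 27.1 and 27.4 CPM in normoxia, 16.5, 20.5 and 15.5 CPM at day 28, and 22.2, 29.1 and 29.7 CPM at day 56. Its day 56 libraries lay above all of day 28 but overlapped normoxia, and the log2 fold change of day 56 over day 28 was 0.63 (SE 0.22, adjusted p = 0.180). Psmd10 averaged 1.75 ± 0.481 CPM at day 28 and 2.23 ± 0.475 CPM at day 56, against 2.99 ± 0.862 CPM in normoxia (SD, n = 3 each), and was not called.

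Between the SuHx days edgeR called 0 of the 35 genes, against 0.426% of all tested genes higher and 0.121% lower at day 56. The unadjusted p was under 0.05 for 1 higher gene, against 9.11% of all, and for 1 lower gene, against 9.38%. DESeq2 called 1 gene, Psmd1, lower, against 3.91% of all, and 0 higher, against 4.81%. The median log2 fold change of day 56 over day 28 was -0.09, against -0.01 for all genes. Day 56 lay below day 28 without overlap for 8 of 35 genes, against 17.4% of all genes, and above it for 2, Psmd4 and Psmd9, against 17.8%. Psmd1, a scaffold of the base, had 41.4, 39.5 and 38.3 CPM at day 56, against 52.4, 54.9 and 51.9 CPM at day 28. The fold change of Psmd1 was -0.42 on the log2 scale (SE 0.14, adjusted p = 0.154).

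Within normoxia, replicate 1 and the other libraries differed in most subunit genes. Replicates 2 and 3 of normoxia lay above all 6 SuHx libraries for 30 of the 35 genes, against 26.8% of all tested genes, and below all of them for 1, Psmd3, against 24.7%. Replicate 1 lay within the range of the SuHx libraries for 22 genes (62.9%, against 66.9% of all tested genes). It lay below that range for 10 of the 35 genes, against 2072 of all 12447 tested genes, and above it for 3, against 2047. The mean of replicates 2 and 3 exceeded replicate 1 by a median log2 difference of 0.93 over the 35 genes, against -0.01 over all tested genes. This gap was a description of libraries that share a label and was not tested.

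The gap differed by class. Its median was 1.31 for the alpha ring, 1.40 for the beta ring, 0.84 for the ATPases, 0.65 for the non-ATPase subunits and 0.68 for the assembly chaperones. The mean log2 CPM of the 14 tested core genes minus that of the 17 regulatory genes was 0.11, 0.81 and 0.81 in normoxia, 0.26, 0.39 and 0.24 at day 28, and 0.16, 0.19 and 0.25 at day 56. Normoxia replicate 1 had the lowest value of the 9 libraries and the other normoxia libraries the highest.

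**Figure D3:**
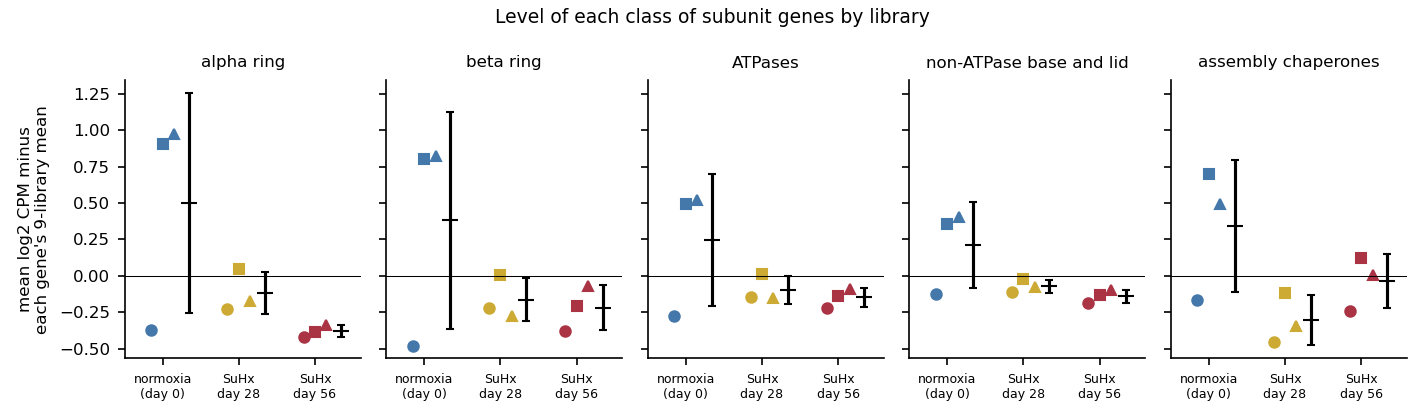
Mean over the tested genes of each class of log2 CPM minus the gene's own mean over the 9 libraries, by library, with circle, square and triangle for replicates 1, 2 and 3 and bars for mean ± SD (n = 3). Normoxia replicates 2 and 3 stand at 0.90 and 0.97 in the alpha ring and at 0.36 and 0.40 in the non-ATPase subunits, and normoxia replicate 1 lies below 0 in every class.

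Without normoxia replicate 1, edgeR called 29 of the 35 genes lower and 1 higher at day 28, and 28 lower and 1 higher at day 56. The background rose as well: 22.2% of all tested genes were called lower and 23.0% higher at day 28, and 21.2% lower and 21.8% higher at day 56. The gene called higher at both days was Psmd3, with log2 fold changes of 0.61 (SE 0.12, adjusted p = 0.00417) and 0.76 (SE 0.12, adjusted p = 0.00142). The genes not called at either day were Psmb5, Psmc3, Psmd2 and Psmd13, with Psmd1 at day 28 and Psmd9 and Psmd10 at day 56. At day 56 relative to day 28, Psma3 and Psmd1 were then also called lower, against 3.32% of all genes, and Psmd9 higher, against 4.57%.

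The column headers carry numeric codes without saying what they stand for. Grouping libraries of neighbouring codes is an inference, and what the codes share is not given. Day 56 replicate 1 and normoxia replicate 1 (codes 46 and 47) differed by a median log2 of -0.01 over the 35 genes, with 19 below 0, against -0.00 and 6278 of 12447 over all tested genes. This sets 1 library against 1 and has no replicate check. Day 56 replicates 2 and 3 differed from normoxia replicates 2 and 3 (codes 61 to 64) by a median of -0.84, with 32 of 35 below 0, against -0.03 and 6393 of 12447. For Psma3 the log2 difference was -0.17 between the libraries of codes 46 and 47 and -1.58 among those of codes 61 to 64, for Psmd5 -0.37 and -1.19, and for Psmd6 -0.11 and -1.47. The day 28 libraries carry codes of their own (68 to 70), so for them code and day cannot be told apart.

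Several other measures moved with the gap. Over all genes, intron reads made up 14.6%, 6.599% and 5.37% of the reads in normoxia, 24.9%, 21.4% and 14.2% at day 28, and 16.9%, 14.0% and 11.9% at day 56. With this share as a covariate edgeR called 0 of the 35 genes at either day. Of all 12447 tested genes it then called 0 lower and 1 higher at day 28, and 45 lower and 93 higher at day 56. The platelet marker list (17 of 18 genes tested) averaged 5.39, 7.26 and 7.35 log2 CPM in normoxia, from 4.81 to 5.58 at day 28 and from 6.33 to 7.27 at day 56. The erythroid list (27 of 28) averaged 5.35, 6.36 and 6.65 in normoxia, from 1.65 to 4.67 at day 28 and from 5.85 to 6.02 at day 56. The 73 tested ribosomal protein genes averaged 8.56, 9.96 and 9.94 in normoxia, from 8.91 to 8.97 at day 28 and from 8.93 to 9.19 at day 56. With the log2 globin share as a covariate the median was -0.50 at day 28 and -0.59 at day 56, with 0 of the 35 genes called. The calls over all genes in that fit are not given here. The platelet genes Pf4 and Itga2b and the red cell genes Alas2 and Slc4a1 were at 11.7 CPM or above in every library. The part of platelets in the result was not tested.

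Across the 31 tested subunits of both particles, the gap within normoxia was larger for genes with shorter annotated exons (Spearman rho -0.67, Pearson r -0.63 with log2 exon length). Across all 35 tested genes of the rule the relation was weaker (rho -0.52, r -0.48). Over all 12447 tested genes the same rho was -0.42. The core genes had a median exon length of 965.5 bases and the regulatory genes 1584 bases. Psma3, with 3209 bases of exons, had a log2 gap of 1.11, and Psmd3 with 2147 bases had -0.58. These correlations are across genes of the same libraries, which are not independent replicates, and are given as a description.

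**Figure D4:**
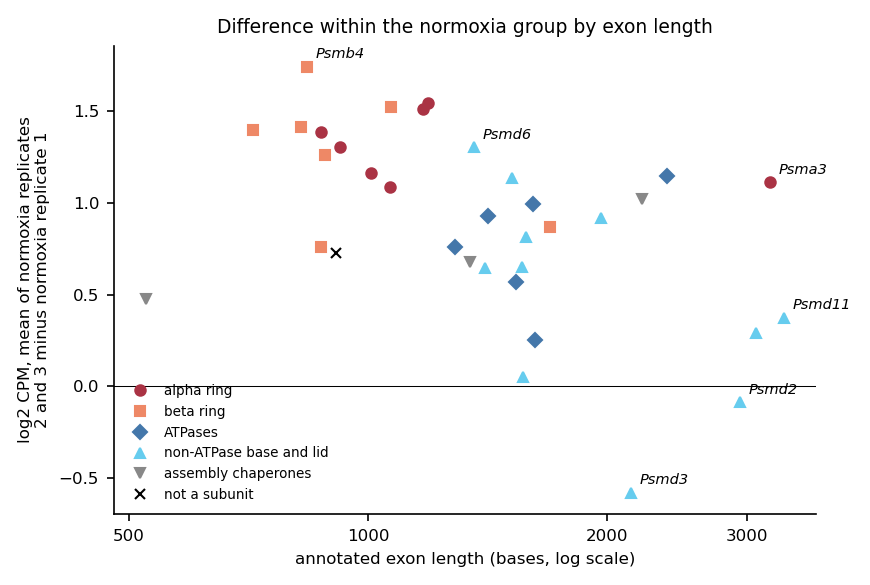
Log2 CPM of the mean of normoxia replicates 2 and 3 minus replicate 1 (vertical) against annotated exon length in bases (horizontal, log scale) for the 35 tested genes, with a symbol for each class. Most beta and alpha ring genes lie at the upper left, Psma3 lies at the upper right with a gap of 1.11, and Psmd3 is the lowest at -0.58.

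The ratio of each immunoproteasome gene to the constitutive subunit it replaces compares genes within a library, so it does not depend on the scaling of the libraries. Psmb8 over Psmb5 was 5.15, 5.74 and 5.90 in normoxia, 4.59, 4.95 and 4.51 at day 28, and 4.85, 3.78 and 4.69 at day 56. All 6 SuHx ratios lay below all of normoxia. The log2 ratio averaged 2.18 ± 0.140 in SuHx (SD, n = 6) and 2.48 ± 0.104 in normoxia (SD, n = 3), a difference of -0.30 (exact two-sided permutation test, p = 0.0238, adjusted over the 3 pairs 0.0357).

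Psmb10 over Psmb7 was 2.01, 2.06 and 2.02 in normoxia, 1.86, 2.01 and 1.90 at day 28, and 1.75, 1.64 and 1.95 at day 56. Here too all 6 SuHx ratios lay below normoxia, but at the closest point by very little. Day 28 replicate 2 was at 2.009 and normoxia replicate 1 at 2.013. The smallest p below rests on that order, and the counting error of the ratios was not estimated. The log2 ratio averaged 0.89 ± 0.108 in SuHx (SD, n = 6) and 1.02 ± 0.0173 in normoxia (SD, n = 3), a difference of -0.13 (exact permutation p = 0.0238, adjusted 0.0357). The raw p of 0.0238 is the smallest that 6 against 3 libraries can give. Without normoxia replicate 1 the difference was -0.36 for Psmb8 over Psmb5 and -0.14 for Psmb10 over Psmb7, with too few libraries for the adjusted p to pass.

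Psmb9 over Psmb6 was 1.92, 1.05 and 1.05 in normoxia, 2.10, 2.96 and 2.40 at day 28, and 1.68, 1.78 and 1.95 at day 56. Normoxia replicate 1 lay among the day 56 libraries and the other normoxia libraries below all of SuHx. The log2 ratio differed by 0.72 between SuHx and normoxia (exact permutation p = 0.0714, adjusted 0.0714) and did not pass. Without normoxia replicate 1 the difference was 1.01. The denominator is the gene whose reads mostly mapped to several places.

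**Figure D5:**
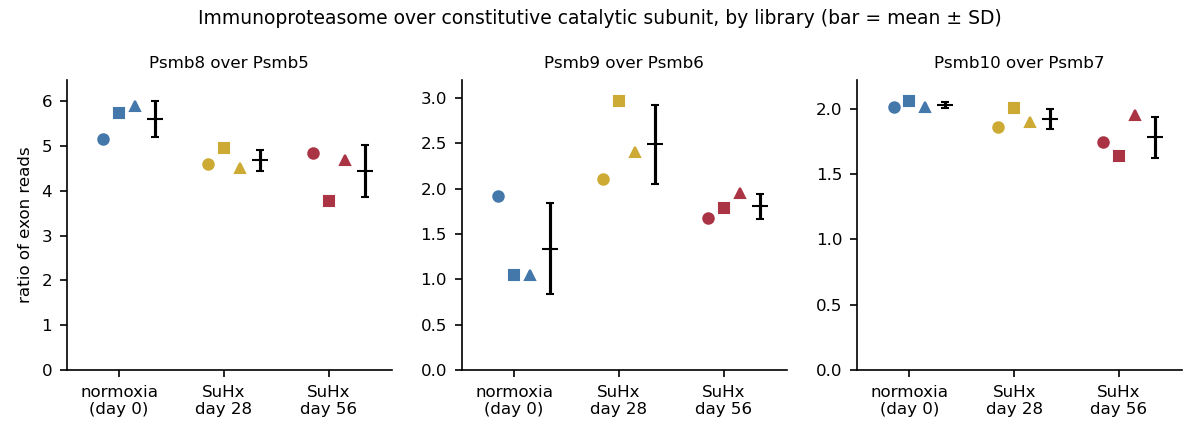
Ratio of exon reads of each immunoproteasome gene to its constitutive counterpart by library on linear axes from 0, with circle, square and triangle for replicates 1, 2 and 3 and bars for mean ± SD (n = 3). For Psmb8 over Psmb5 and for Psmb10 over Psmb7 all SuHx points lie below all normoxia points. For Psmb10 over Psmb7 the closest points are nearly level, 2.009 in day 28 replicate 2 and 2.013 in normoxia replicate 1. For Psmb9 over Psmb6 normoxia replicate 1, at 1.92, lies among the day 56 points.

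The other genes of the pathway came from a list of 40 lines, of which 39 were tested. None was called at day 28 or between the SuHx days, and 2 of 39 were called higher and 0 lower at day 56, against 3.42% and 3.70% of all tested genes. Their median log2 fold change was 0.04 at day 28 and -0.07 at day 56. Zfand2a, a stress-induced factor that binds the proteasome, had 30.3, 34.2 and 30.5 CPM at day 56, against 11.5, 13.03 and 12.3 CPM in normoxia. Its fold change was 1.37 on the log2 scale (SE 0.22, adjusted p = 0.0125). All day 56 libraries lay above all of normoxia, replicate 1 included, as for 15.6% of all tested genes. Ubqln2, which carries ubiquitin-tagged proteins to the proteasome, had 23.6, 19.2 and 17.6 CPM at day 56, against 12.5, 7.03 and 6.94 CPM in normoxia. Its fold change was 1.19 on the log2 scale (SE 0.26, adjusted p = 0.0301). Over the leave-one-out fits the adjusted p ran from 0.00292 to 0.0631 for Zfand2a, which kept its call in 5 of 9, and from 0.000475 to 0.127 for Ubqln2, which kept it in 3 of 9. Both calls were lost without normoxia replicate 2 or 3 and without day 56 replicate 2 or 3, and that of Ubqln2 also without day 28 replicate 1 or day 56 replicate 1. The calls over all genes in these fits are not given here.

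The subunits outside the naming rule lay on opposite sides. Sem1, a small lid subunit, had 35.2, 123.8 and 119.7 CPM in normoxia, 42.3, 57.6 and 41.7 CPM at day 28, and 38.0, 43.8 and 43.0 CPM at day 56, like the core genes. Adrm1, a ubiquitin receptor of the base, had 35.5, 23.5 and 23.8 CPM in normoxia, 34.2, 31.8 and 33.3 CPM at day 28, and 35.5, 40.6 and 44.2 CPM at day 56, like Psmd3. At day 56 the log2 fold change was -1.16 for Sem1 (SE 0.39, adjusted p = 0.0903) and 0.54 for Adrm1 (SE 0.19, adjusted p = 0.0938).

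Nfe2l1, a transcription factor that raises subunit genes when proteasome activity is low, averaged 31.5 ± 0.971 CPM at day 28 and 24.8 ± 1.37 CPM at day 56, against 17.5 ± 4.92 CPM in normoxia (SD, n = 3 each). All 6 SuHx libraries lay above all of normoxia, but day 56 replicate 1, at 23.24 CPM, was nearly level with normoxia replicate 1, at 23.03 CPM. Of all tested genes, 11.4% lay above normoxia without overlap at day 28 and 15.6% at day 56. The log2 fold changes of Nfe2l1, 0.85 and 0.50, did not pass (SE 0.20 at both days, adjusted p = 0.0775 and 0.121). Of the activators, Psme1 had a log2 fold change of 0.20 at day 56 (SE 0.21, adjusted p = 0.526), Psme2 -0.58 (SE 0.29, adjusted p = 0.207), Psme3 0.67 (SE 0.23, adjusted p = 0.0885) and Psme4 -0.65 (SE 0.24, adjusted p = 0.105). Pomp, which matures the core particle, averaged 1.65 ± 0.274 CPM at day 28 and 1.53 ± 0.842 CPM at day 56, against 1.32 ± 0.697 CPM in normoxia (SD, n = 3 each). For Psme2, Psme3 and Pomp only 13.6%, 14.7% and 16.4% of exon reads mapped uniquely, so their levels are uncertain.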

How the data were processed

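The 9 libraries of rat peripheral blood mononuclear cells were grouped by their labels. Per the file headers, the deposited table gives for each Ensembl gene raw counts of reads in exons, of those that map to 1 place, and of reads in exons or introns, with RPKM computed by the authors. The submitters' processing notes name rn6 and FastQC; which aligner was used is not given in the sources used here. Main counts also hold reads with several map positions. The deposited unique reads of the replicate 1 columns count as estimated counts, per the file headers and values, only because of a fraction on a broken line; the genes used hold whole numbers. Of 22085 lines, 8 were broken (Bmp4, Ctnnb1, Shh and Wnt5a) and left out, and 90 further per-sample columns were not used.

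Counts were tested with edgeR 4.0.16 (robust quasi-likelihood F-test, TMM factors, filterByExpr, all 9 libraries, Benjamini-Hochberg at 0.05 over 12447 genes) in R 4.3.3; SE is the absolute log2 fold change over the square root of F. Ratios were tested with scipy 1.17.1. The fit was tested on simulated data. Every pair of replicates differed by more than sampling noise. Alternatives were DESeq2 1.42.0, other scalings, filters, read classes, covariates, the replicate number as a block and leaving out libraries. Named genes were those called, the smallest p of each class at each day, the catalytic subunits, the genes of the highest and lowest RPKM, the lowest unique share, and Psma8 and Psmb11; Psmb4, Psmc3, Psmd1, Psmd2, Psmd3, Psmd9, Psmd10 and Psmd13 were added after their values were seen. The members and lists were chosen with earlier results of these data known.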

Additional observations from a re-analysis of the deposited data

Results flagged for a closer look

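Reads in the introns of Psma8, outside the main measurement, were above normoxia at day 56. There were 11, 6 and 21 such reads at day 56, 38 in all, against 2, 2 and 3 in normoxia, which is from 0.252 to 0.704 CPM against from 0.0736 to 0.195 CPM. At day 28 the libraries had 2, 11 and 0. The exons of Psma8 had 0 reads at day 56 and in normoxia, so the signal rests on few reads and on introns alone, and the strand of the reads is not given.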

How the results depend on the processing

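Over 20 alternatives, the count of the 35 tested genes (Psmc3ip included) called at day 28 stayed at 0 in 17, and the count between the days stayed at 0 in 17. Of 21 alternatives at day 56, 6 kept the count within 1.5 times of 3. DESeq2 called 5 at day 28, 11 at day 56 and 1 between the days, all lower. Leaving out 1 library gave from 0 to 30 calls at day 28, from 0 to 29 at day 56 and from 0 to 3 between the days, the highest each time without normoxia replicate 1. Of these fits, calls over all genes are given above only for the one without normoxia replicate 1. Leaving out normoxia replicate 1 and day 28 replicate 3 together, chosen after seeing the data, gave 28, 29 and 2. The calls over all genes in that fit are not given here. At day 56, 0 were called once a covariate (intron share, or log2 globin share) was added. With the intron share, calls over all 12447 tested genes were also few, 45 lower and 93 higher. With the log2 globin share, calls over all genes are not given here. With the inferred grouping of column codes as a block, also chosen after seeing the data, 1 was called, Psmd5. How many of all tested genes were called with this block is not given here. The causes were not tested. The median log2 fold change moved to 0.07, -0.36 and -0.40 at day 28, at day 56 and between the days once the intron share was a covariate.

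With the replicate number as a block, 0 of the 35 genes were called at day 56, against 233 lower and 307 higher of all 12447 tested genes. The labels do not say that a number marks anything shared. Of 9 same-numbered pairs the correlation of deviations ran from -0.15 to 0.17, and 3 were over 0.1.

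Leaving out 1 library moved the log2 ratio difference from -0.36 to -0.24 for Psmb8 over Psmb5 and from -0.16 to -0.10 for Psmb10 over Psmb7. Both calls were then lost. Without a normoxia library the raw p cannot go below 0.0714, so that loss says nothing of stability. Without a SuHx library the adjusted p was 0.0536 for both. It could not be smaller while Psmb9 over Psmb6 had a larger raw p, so that loss says nothing of stability either. Both calls held with unique reads and with exon plus intron reads, where the difference of Psmb10 over Psmb7 was -0.39.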
